A study of Homo sapiens with 9 samples.

Results

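The genes described are the nuclear subunits and the NDUFAF assembly factors of respiratory complex I, chosen by symbol: every gene of the count table whose symbol starts with NDUFA, NDUFB, NDUFC, NDUFS or NDUFV, without pseudogenes and hyphenated symbols. The rule gave 47 of 28307 genes, and all 47 passed the filter on low counts, as did 15619 genes in all. They were measured by poly(A) RNA sequencing in SW620, an established human line from a lymph node metastasis of a colon adenocarcinoma. All groups carried the unmodified (WT) genotype and were kept as suspension cultures on low-attachment plates, with a defined medium holding insulin, basic FGF and EGF. The groups were 120 µM streptomycin (SM) for 48 h, 120 µM dihydrostreptomycin (DSM) for 48 h and untreated cells, with 3 libraries each. Both drugs are aminoglycosides, antibiotics directed at bacterial ribosomes. DSM carries an alcohol where SM has the streptose aldehyde. The design text calls the 3 libraries of a group biological replicates, without saying what a replicate number shares, so p-values measure the spread between these libraries.

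Complex I takes electrons from NADH in the mitochondrial matrix, passes them along a chain of iron-sulfur clusters to ubiquinone and couples this to proton pumping across the inner membrane. Its core subunits catalyse the reaction and come partly from the nucleus and partly from mitochondrial DNA, so assembly needs nuclear transcription, import and mitochondrial translation together. Accessory subunits surround the core and stabilise it, and assembly factors bind intermediates and leave the finished complex. The symbols of the 7 subunits encoded in mitochondrial DNA (MT-ND1 to MT-ND6 and MT-ND4L) were not found in the count table. Their messenger RNAs were therefore not analysed here.

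Total counts lay between 39315662 (SM replicate 2) and 65562227 (untreated replicate 1), and the 47 genes took 0.306% to 0.322% of a library. Libraries carrying number 1 differed from the rest whatever the group, and 40.7% of tested genes differed between replicate numbers. Colon epithelial markers summed to 11100 to 13220 CPM (counts scaled to library size, with TMM factors) in SM, 11350 to 14210 CPM in DSM and 11570 to 14530 CPM in untreated libraries, with CDX1 and GPA33 near 0. Of 7 such markers tested, 0 were called without a replicate block. With replicate number as a block, 2 were lower with SM, KRT19 and VIL1, against 1.54% of all tested genes lower than untreated and 2.15% lower than DSM. Their log2 differences were -0.18 and -0.14 from untreated (edgeR adjusted p 0.00173 and 0.0119) and -0.14 and -0.14 from DSM (0.0158 and 0.00739). Fibroblast markers summed to 12.8 to 25.3 CPM in SM, 16.6 to 26.2 CPM in DSM and 16.0 to 27.2 CPM in untreated libraries, with COL3A1 and DCN at 0 throughout. Of 4 tested, 0 were called without the block and 1, LUM, was lower with SM with it, by -0.41 from untreated and -0.46 from DSM on the log2 scale (edgeR adjusted p 0.0271 and 0.00877). Leukocyte markers summed to 22.4 to 24.3, 23.6 to 29.4 and 21.5 to 25.9 CPM in SM, DSM and untreated libraries, and 0 of 4 tested were called in either fit. The part of these markers in the results below was not tested.

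Transcripts of the 47 genes differed widely in level. The level is given per transcript length, as the mean CPM over 9 libraries per kb of the longest GENCODE 29 principal transcript. The highest were NDUFB9 at 206.5 CPM per kb, NDUFS5 at 181.9 and NDUFS6 at 181.4. NDUFB9 is a LYR-motif subunit of the distal membrane arm, NDUFS5 is a cysteine-rich subunit facing the intermembrane space, and NDUFS6 is a zinc-binding subunit of the matrix arm. The lowest were NDUFA4L2 at 1.37 CPM per kb, NDUFC2 at 2.87 and NDUFAF5 at 4.76. With the length of all exons of the gene's coding transcripts in place of the principal one, these 3 stayed lowest. NDUFB9 then had rank 11 and 69.6 CPM per kb. The second length is never the shorter, so it cannot show whether a principal transcript is too long. NDUFAF5 had 26.3 CPM over 5529 bases, while NDUFB1, not among the lowest per kb, had 16.2 CPM over 528 bases. NDUFC2 lies under a readthrough gene, a counting limit taken up below.

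By role, the 7 nuclear core subunits had a median of 62.6 CPM per kb, with NDUFS1 lowest at 10.5 and NDUFV2 highest at 95.2. Before division by length NDUFS1 stood above NDUFV2, at 123.8 against 88.5 CPM, with principal transcripts of 11819 and 930 bases. The 10 accessory subunits of the matrix arm had a median of 45.6 CPM per kb, from NDUFV3 at 8.52 to NDUFS6. The 9 of the proximal membrane arm had a median of 65.9 CPM per kb, and the 11 of the distal membrane arm had a median of 89.7, with NDUFB6 lowest at 20.0. The 8 assembly factors had a median of 13.2 CPM per kb, and 6 of them had at most 15.8 CPM per kb. The other two, NDUFAF2 at 93.5 and NDUFAF8 at 70.5 CPM per kb, stood at the level of the subunits. NDUFAF2 is a paralogue of the subunit NDUFA12 that occupies its place during late assembly, and NDUFA12 itself had 114.4 CPM per kb. Lengths are annotated rather than measured, so this order is approximate.

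**Figure D1:**
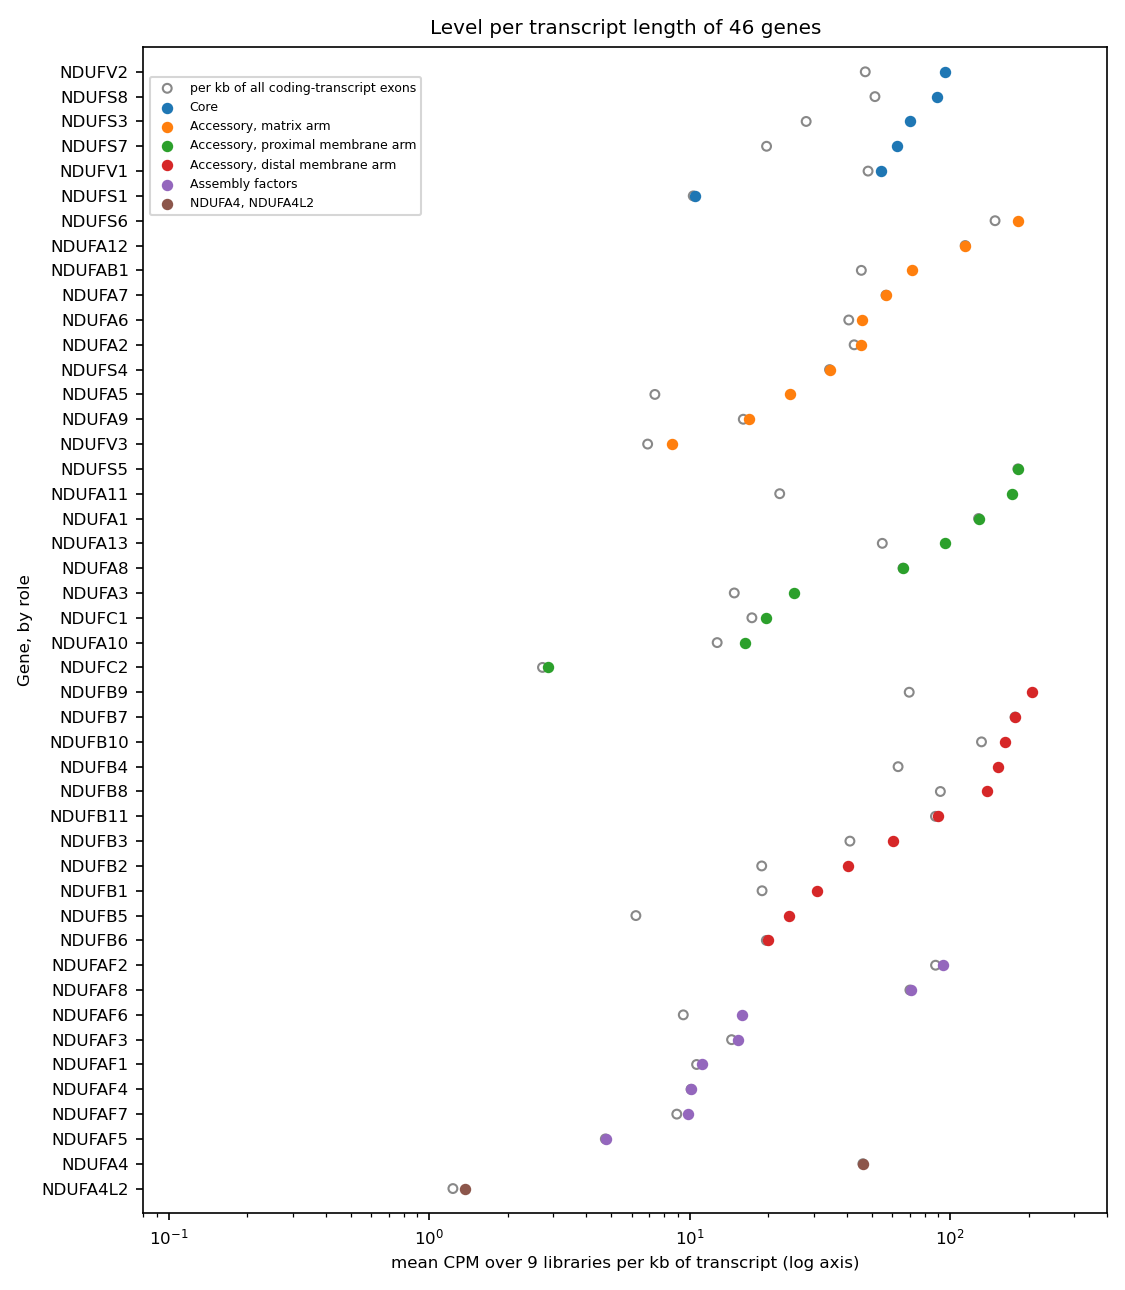
Level of 46 genes (rows, grouped by role) as mean CPM over 9 libraries per kb of transcript, on a log axis; filled points use the principal transcript and open points all exons of coding transcripts. Most assembly factors have at most 15.8 CPM per kb, and NDUFA4L2 is lowest at 1.37.

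The 47 genes varied little between libraries. The median SD of log2 CPM over the 9 libraries was 0.067, against 0.128 over all tested genes. It was 0.088 over the 8688 tested genes within the range of mean level of the members other than NDUFA4L2. Genes were not matched by level within that range, and the part of level in this spread was not tested. NDUFB9 was the steadiest, between 142.8 and 149.6 CPM in all 9 libraries. Apart from NDUFA4L2, described below, the most variable were NDUFC2, with an SD of 0.14, and NDUFAF4, with 0.13. Summed over all 47 genes, the CPM were 3076, 3200 and 3121 in SM, 3183, 3080 and 3096 in DSM and 3198, 3119 and 3195 in untreated libraries. The summed ranges of the 3 groups overlap.

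**Figure D2:**
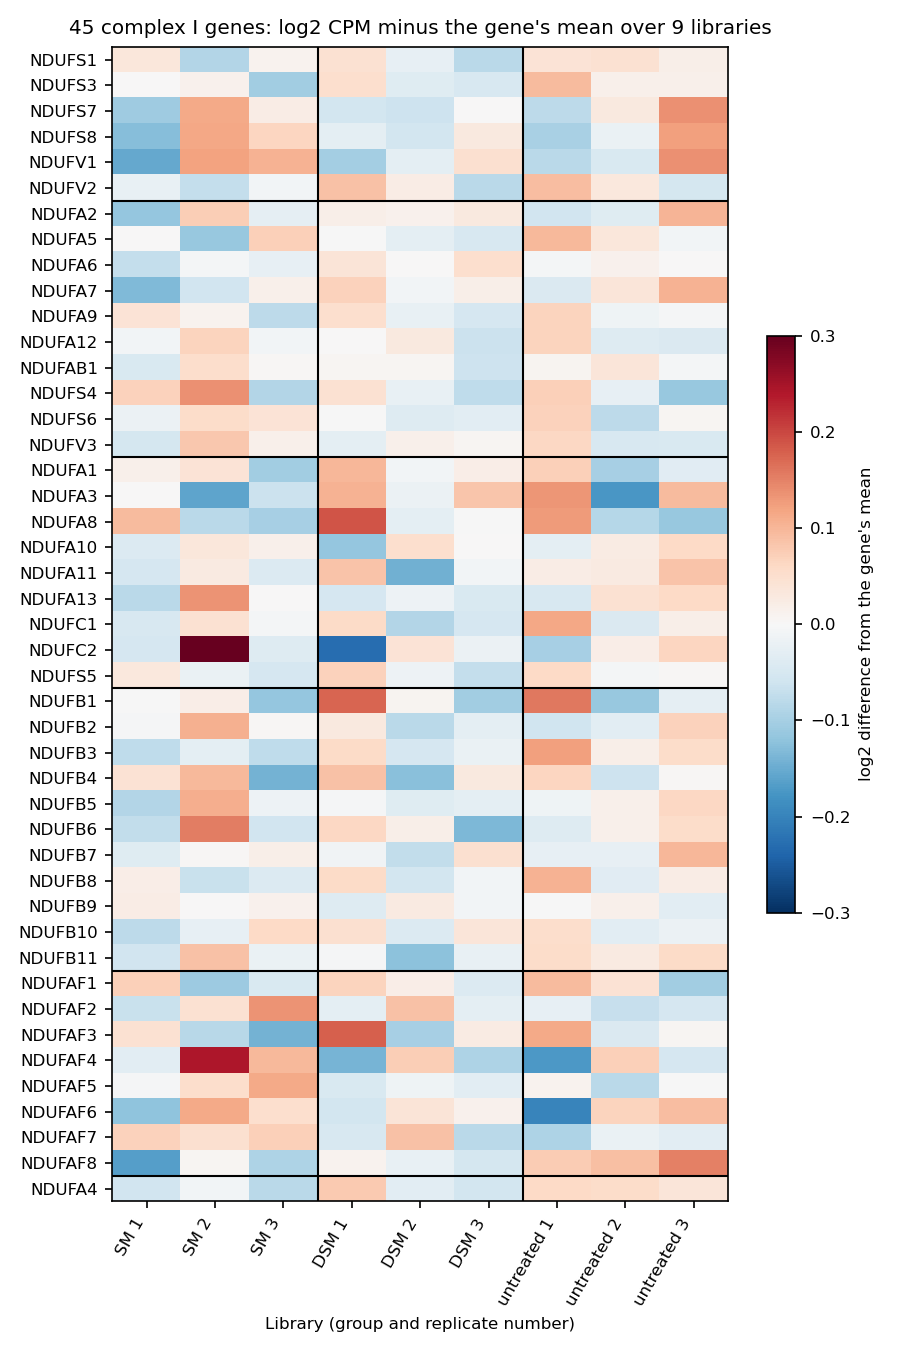
Difference of log2 CPM from the gene's mean over 9 libraries (colour, log2) for 45 genes (rows, by role, without NDUFA4L2) in each library (columns, SM, DSM and untreated by replicate number). Values lie between -0.23 and 0.31, and 1 of 405 exceeds the colour limit of 0.3.

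SM against untreated cells left the transcripts of complex I subunits close to their untreated level. None of the 47 genes passed edgeR's quasi-likelihood test with Benjamini-Hochberg adjustment at 0.05, against 0.0192% of all tested genes (3 of 15619). At an unadjusted p under 0.05, 2 of 47 and 365 of 15619 genes lay below the threshold, and DESeq2 and limma voom called 0 of the 47, against 14 and 3 of all tested genes. With the replicate number as a block, 1 of 47 was called, NDUFAF8, which was lower with SM. The share of all tested genes called was 2.74% in either direction, 1.2% higher and 1.54% lower. In that fit NDUFAF8, NDUFAF4, NDUFB3, NDUFA4 and NDUFAF7 had an unadjusted p under 0.05, from 0.000298 to 0.0462 (edgeR). The share of all tested genes under that unadjusted threshold with the block is not given here. The median log2 difference of the 47 was -0.019, against -0.0007 over all tested genes. The median size of a difference was 0.037 in either fit, against 0.068 over all tested genes. The 95% interval of 46 of 47 lay within 0.5 log2 units of 0, and all 47 did so with the block.

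Among the 7 nuclear core subunits, which hold the flavin, the iron-sulfur clusters and part of the ubiquinone site, 0 were called in either fit, and their median log2 difference was -0.039. NDUFV1, which binds NADH and the flavin, averaged 139.98 ± 14.4 CPM in SM, 134.7 ± 6.97 CPM in DSM and 137.8 ± 11.4 CPM in untreated libraries (SD, n = 3 each, as below). NDUFV2, its partner with a cluster of its own, averaged 86.4 ± 1.96, 89.1 ± 5.24 and 90.0 ± 4.55 CPM in SM, DSM and untreated libraries. NDUFS1, the largest subunit of the cluster chain, averaged 122.6 ± 5.48, 122.1 ± 5.41 and 126.7 ± 1.40 CPM in SM, DSM and untreated libraries. These SDs include the spread between replicate numbers. With the replicate block, SM differed from untreated by 0.020 (SE 0.039) for NDUFV1 on the log2 scale. The blocked differences were -0.057 (SE 0.038) for NDUFV2 and -0.0475 (SE 0.035) for NDUFS1.

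NDUFS7, which lines the ubiquinone site and holds the last cluster, averaged 65.5 ± 5.03, 63.2 ± 1.53 and 66.4 ± 4.92 CPM in SM, DSM and untreated libraries. NDUFS3, which enters early in the assembly of the ubiquinone module, averaged 65.7 ± 2.89 CPM in SM, 66.5 ± 2.51 CPM in DSM and 69.0 ± 2.20 CPM in untreated libraries. NDUFS8, which carries the last clusters before NDUFS7, averaged 71.6 ± 6.22, 69.6 ± 2.10 and 70.8 ± 5.58 CPM in SM, DSM and untreated libraries. All SM libraries lay below all untreated ones for NDUFS3, by a small margin, and it did not pass the test. With the block its log2 difference was -0.073 (SE 0.037, adjusted p = 0.367, edgeR).

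No accessory subunit was called with SM. Of the matrix arm (NDUFA2, NDUFA5, NDUFA6, NDUFA7, NDUFA9, NDUFA12, NDUFAB1, NDUFS4, NDUFS6 and NDUFV3), 0 of 10 were called in either fit, with a median log2 difference of -0.017. Of the proximal membrane arm (NDUFA1, NDUFA3, NDUFA8, NDUFA10, NDUFA11, NDUFA13, NDUFC1, NDUFC2 and NDUFS5), 0 of 9 were called, with a median of -0.015. Of the distal membrane arm (NDUFB1 to NDUFB11), 0 of 11 were called, with a median of -0.019. The 8 assembly factors (NDUFAF1 to NDUFAF8) had a median of 0.051, and NDUFAF8 alone was called, with the block. By library ranges, 6 of 47 genes had all SM libraries below all untreated ones, among them NDUFS3, NDUFA4, NDUFA6, NDUFB3 and NDUFAF8, against 3.46% of all tested genes. NDUFAF7, a mitochondrial arginine methyltransferase, was the only one with all SM libraries above, against 3.27%. By pairs of the same number, 12 of 47 were lower with SM in 3 of 3 pairs, against 18.9% of tested genes, and 2 were higher in 3 of 3, against 17.4%.

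NDUFAF8 is a small protein that binds NDUFAF5, the enzyme that hydroxylates an arginine of NDUFS7 early in assembly. It had 38.6, 43.5 and 40.6 CPM in the SM libraries, 43.6, 42.6 and 41.7 CPM in the DSM libraries and 45.6, 46.1 and 48.0 CPM in the untreated libraries. All SM and all DSM libraries lay below all untreated ones, and the SM and DSM ranges overlap. The counts behind these values lay between 1712 and 2935 reads. SM and untreated means were 40.9 ± 2.46 and 46.6 ± 1.28 CPM (n = 3 each), a log2 difference of -0.19 (SE 0.056) with an adjusted p of 1 without the block. With the block the difference was -0.19 (SE 0.045, 95% interval -0.28 to -0.10) and the adjusted p 0.0178, with pair differences of -0.24, -0.084 and -0.24, lower in 3 of 3 pairs.

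The blocked call of NDUFAF8 rests on several libraries. Its adjusted p by edgeR was 0.113 without SM replicate 1, 0.0998 without SM replicate 3, 0.118 without untreated replicate 1 and 0.281 without untreated replicate 3. It was 0.168 without the 3 libraries numbered 1 and 0.282 without those numbered 3. Over the leave-one-out fits with the block, the log2 difference stayed between -0.24 and -0.15. NDUFAF5 had 26.3, 27.3 and 28.4 CPM in SM, 25.5, 26.1 and 25.7 CPM in DSM and 26.5, 24.9 and 26.3 CPM in untreated libraries, so the partner of NDUFAF8 did not share its order of groups.

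NDUFAF8 lies on the plus strand of chromosome 17 at 81239311 to 81241310 (RefSeq, GRCh38.p14), with 3 exons in its principal transcript, and no other RefSeq gene overlaps it. Its promoter is shown because it is the gene called in a treatment comparison, with those of NDUFA8 and NDUFA4L2, the genes of smallest p between replicate numbers. RefSeq windows run from 250 bases before to 50 bases from the start on, and the first of the windows listed is given: chr17:81239061-81239360 (plus strand), chr9:122159730-122160029 (minus strand) and chr12:57240713-57241012 (minus strand). Capitals mark matches to the motifs searched on both strands: GCGC, NN and GCGC in 1 run for NRF1, CCGGAAG for ETS factors, AAGATGGC for YY1, ACGTG for the hypoxia-inducible factors and TGACNNNGC for the antioxidant response element.
NDUFAF8: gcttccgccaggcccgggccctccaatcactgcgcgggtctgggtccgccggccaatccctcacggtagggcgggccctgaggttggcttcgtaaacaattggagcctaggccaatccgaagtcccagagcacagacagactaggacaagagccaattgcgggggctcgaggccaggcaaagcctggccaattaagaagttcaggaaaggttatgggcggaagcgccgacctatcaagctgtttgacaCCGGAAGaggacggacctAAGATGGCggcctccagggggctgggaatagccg
NDUFA8: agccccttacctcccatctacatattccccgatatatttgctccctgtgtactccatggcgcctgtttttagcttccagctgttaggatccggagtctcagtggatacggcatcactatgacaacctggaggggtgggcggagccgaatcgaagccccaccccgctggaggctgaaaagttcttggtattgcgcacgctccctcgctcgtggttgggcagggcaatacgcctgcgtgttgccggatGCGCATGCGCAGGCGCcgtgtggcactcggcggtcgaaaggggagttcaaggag
NDUFA4L2: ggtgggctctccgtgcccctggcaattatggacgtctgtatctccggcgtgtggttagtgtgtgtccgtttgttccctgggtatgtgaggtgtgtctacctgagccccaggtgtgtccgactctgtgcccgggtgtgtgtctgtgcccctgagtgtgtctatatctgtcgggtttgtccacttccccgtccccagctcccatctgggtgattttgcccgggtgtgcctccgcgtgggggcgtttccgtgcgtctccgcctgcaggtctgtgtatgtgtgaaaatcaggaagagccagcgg
The NDUFAF8 window holds 1 ETS and 1 YY1 match, the NDUFA8 window 2 NRF1 matches that overlap each other, and the NDUFA4L2 window no match.

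A window was at hand for 41 of the 47 genes. The YY1 letters stood in windows of 8 of them, 19.5% against 3.52% of the 27305 genes with windows. Those 8 were NDUFA3, NDUFA6, NDUFA7, NDUFA9, NDUFAF8, NDUFB8, NDUFS4 and NDUFS7. The NRF1 letters were also in 8, 19.5% against 9.98%, and the ETS letters in 7, 17.1% against 12.2%. The hypoxia letters were in 24.4% against 24.9%, and the antioxidant letters in 26.8% against 16.1%. The 27305 genes were not limited to those tested here. A gene counted where any of its windows held the letters, and the 41 genes had 54 windows. These are counts of letters, without a test, and say nothing of a factor's binding.

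Next to NDUFAF8 in the blocked fit of SM against untreated stood NDUFAF4, NDUFB3 and NDUFA4. NDUFAF4, an assembly factor of the ubiquinone module that works with NDUFAF3, had 23.7, 28.6 and 25.9 CPM in SM, 22.0, 25.5 and 22.7 CPM in DSM and 21.5, 25.4 and 23.3 CPM in untreated libraries. SM was above untreated in 3 of 3 pairs, and the ranges overlap. The log2 difference was 0.15 without the block (adjusted p = 1) and 0.15 with it (SE 0.048, 95% interval 0.05 to 0.25, adjusted p = 0.0958, edgeR). NDUFB3, a distal membrane arm subunit with a single membrane-spanning helix, had 43.1, 44.5 and 43.1 CPM in SM, 47.3, 43.8 and 44.8 CPM in DSM and 49.4, 46.0 and 47.2 CPM in untreated libraries. All SM libraries lay below all untreated ones, with a log2 difference of -0.13 (SE 0.052, adjusted p = 1; with the block SE 0.042, adjusted p = 0.111). Without SM replicate 2, the shallowest library, the blocked difference was -0.16 and its adjusted p 0.0361.

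**Figure D3:**
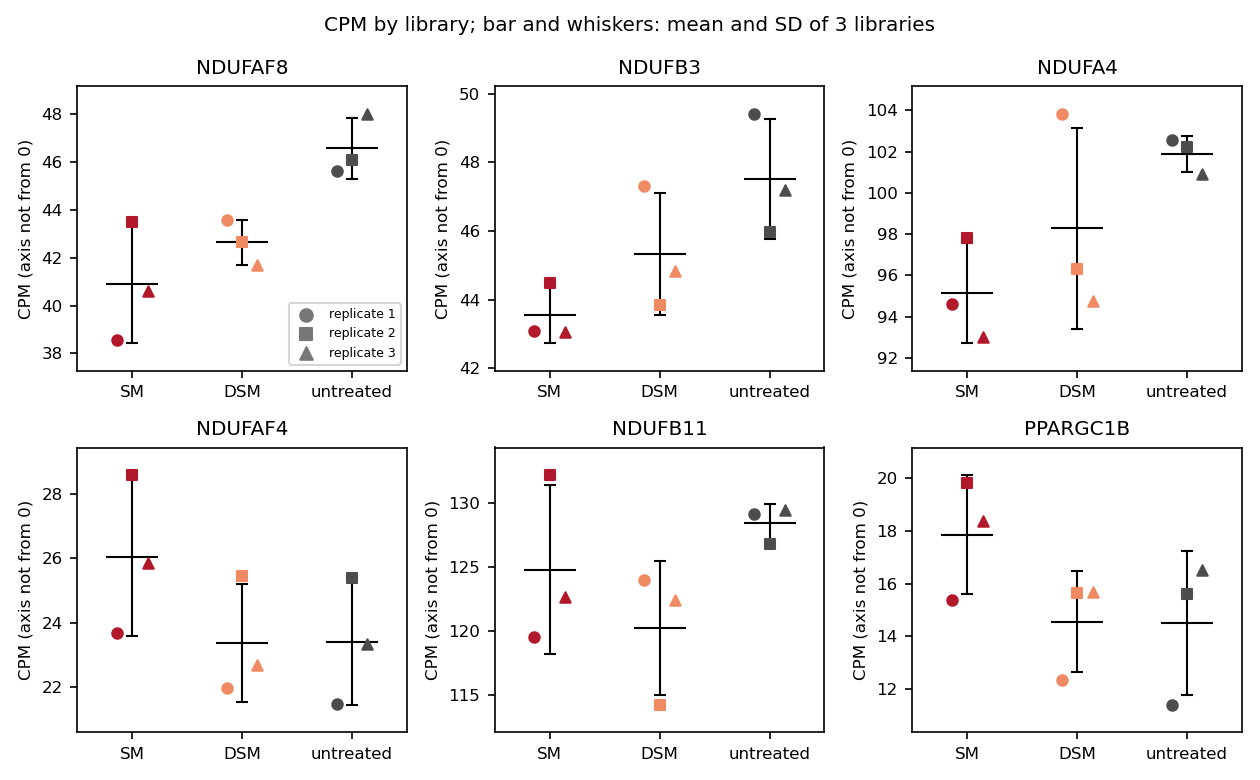
CPM of 5 members and of PPARGC1B in each library, with mean and SD of 3 libraries (axes do not start at 0; marker shape gives the replicate number). The SM and DSM libraries of NDUFAF8, from 38.6 to 43.6 CPM, all lie below the untreated ones, from 45.6 to 48.0 CPM.

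DSM against untreated gave no call among the 47 genes in either fit, where 0% of all tested genes were called. Both treated groups were compared with the same untreated libraries, so the comparisons are not independent. At an unadjusted p under 0.05, 1 of 47 lay below the threshold without the block, NDUFAF8, and 3 of 47 with it, against 103 and 650 of 15619, and DESeq2 and limma voom also called 0 genes. The median log2 difference of the 47 was -0.024, and its value over all tested genes is not given here. All DSM libraries lay below all untreated ones for NDUFB11 and NDUFAF8, 2 of 47 against 2.22% of tested genes, and above for 0 of 47 against 2.2%. By pairs, 11 of 47 were lower with DSM in 3 of 3, against 15.1% of tested genes, and 2 were higher, against 14.3%.

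For NDUFAF8 the log2 difference of DSM from untreated was -0.13 (SE 0.056, adjusted p = 1; with the block 95% interval -0.22 to -0.04, adjusted p = 0.999). NDUFB11, a distal membrane arm subunit encoded on the X chromosome, had 119.5, 132.2 and 122.7 CPM in SM, 124.0, 114.2 and 122.4 CPM in DSM and 129.1, 126.8 and 129.5 CPM in untreated libraries. Its DSM libraries all lay below the untreated ones, with a log2 difference of -0.096 (SE 0.051, adjusted p = 1). With the block its 95% interval was -0.18 to -0.02 and its adjusted p 0.999 (edgeR). NDUFB3 differed by -0.069 between DSM and untreated (SE 0.052, adjusted p = 1; with the block 95% interval -0.15 to 0.02, adjusted p = 0.999).

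SM against DSM, the aldehyde against the alcohol at the same dose and time, gave no call among the 47 genes. Without the block 0% of all tested genes were called, and with it 3.88% were (1.73% higher and 2.15% lower with SM), still with 0 of 47. At an unadjusted p under 0.05, 0 of 47 lay below the threshold without the block and 3 of 47 with it, against 396 and 2535 of 15619. DESeq2 called 0 of the 47 and 11 of all genes. The median log2 difference of the 47 was 0.015, again without a value over all tested genes beside it. The median half-width of the 95% interval was 0.13 without and 0.090 with the block. All 47 intervals lay within 0.5 log2 units of 0 with the block, and 46 without.

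The smallest p-values of this comparison without the block belonged to NDUFAF4, NDUFAF5 and NDUFA3. NDUFAF4 was higher with SM than with DSM in 3 of 3 pairs, by 0.16 on the log2 scale (SE 0.093, adjusted p = 1; with the block 95% interval 0.05 to 0.26, adjusted p = 0.0807). NDUFAF5 was higher in every SM library than in every DSM library, as 1 of 47 genes against 3.41% of tested genes, by 0.085 (SE 0.057, adjusted p = 1). NDUFA3, a small subunit of the proximal membrane arm, had 24.2, 21.7 and 23.1 CPM in SM, 26.0, 23.9 and 25.6 CPM in DSM and 26.5, 21.4 and 25.8 CPM in untreated libraries. Its log2 difference of SM from DSM was -0.13 (95% interval -0.32 to 0.06, adjusted p = 1; with the block -0.24 to -0.02, adjusted p = 0.195). NDUFA6, a LYR-motif subunit that binds the acyl carrier protein NDUFAB1, was the 1 gene with all SM libraries below all DSM ones, against 3.16%. By pairs, 2 of 47 were higher with SM than with DSM in 3 of 3, against 16.3% of tested genes, and 5 were lower, against 16.2%. NDUFAF8 differed by -0.061 between SM and DSM (95% interval -0.19 to 0.06, with the block -0.16 to 0.03).

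**Figure D4:**
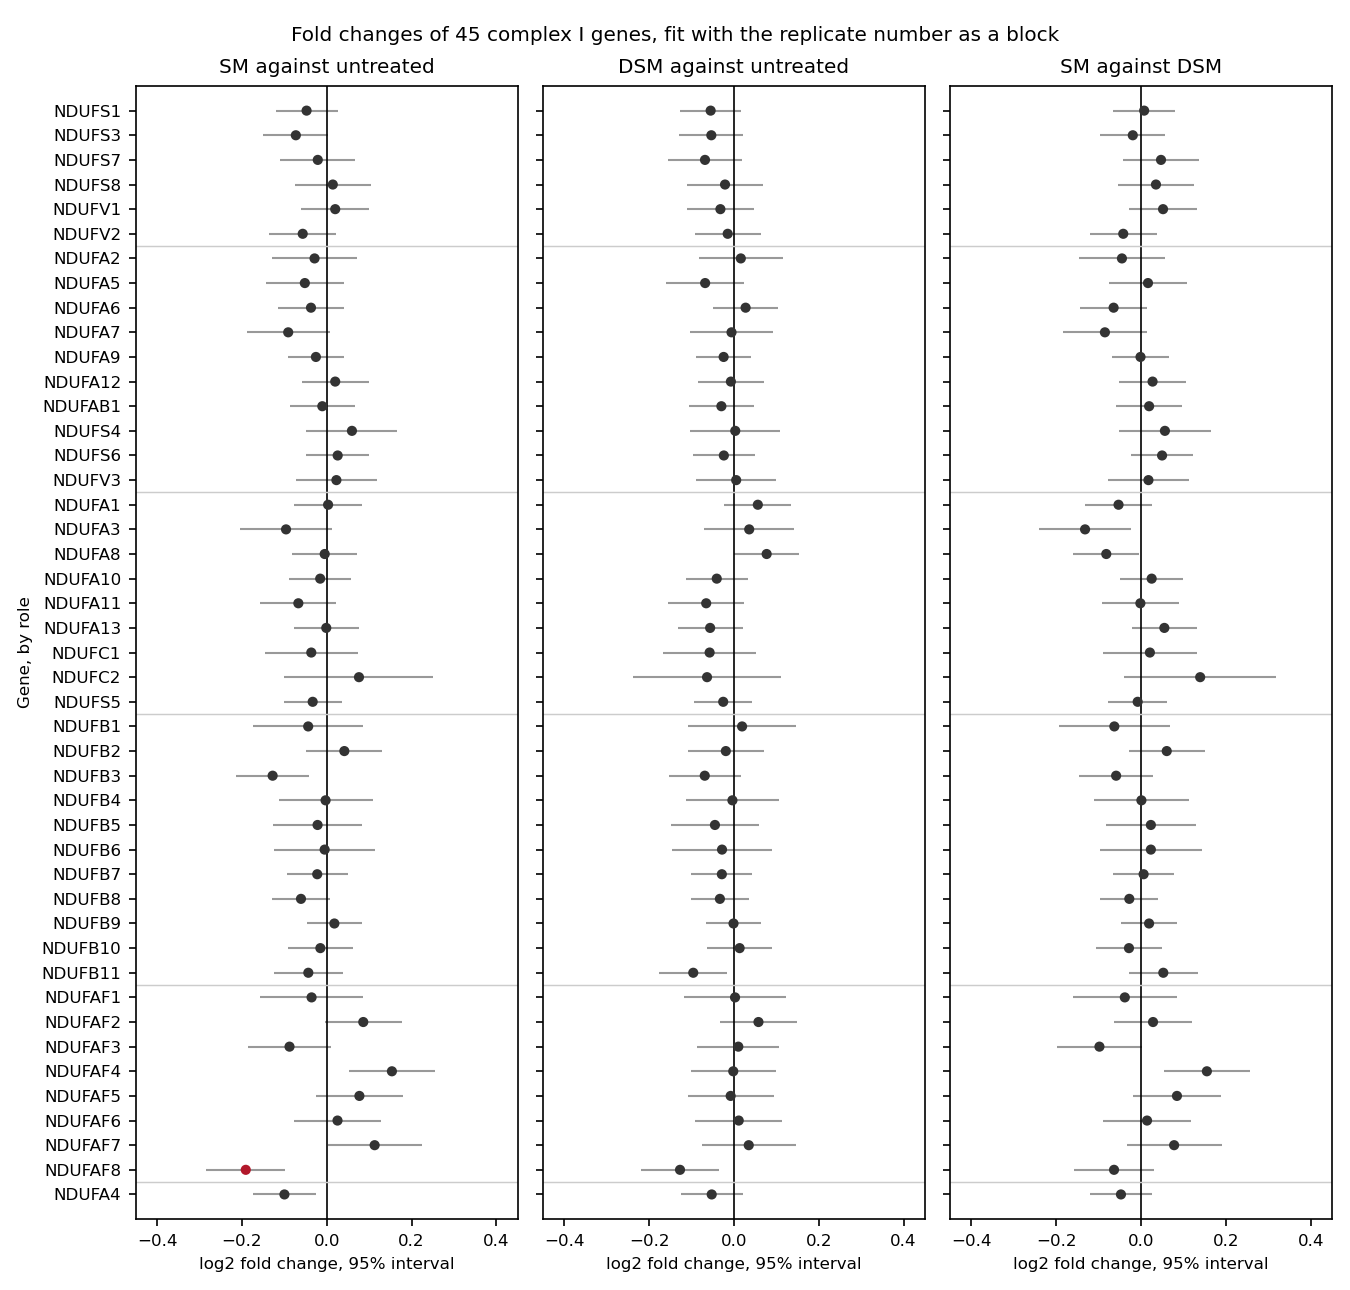
Log2 fold change (points) with 95% interval (bars) of 45 genes, rows by role, in SM against untreated, DSM against untreated and SM against DSM, from the fit with replicate number as a block; NDUFA4L2 is left out for its width. NDUFAF8 in SM against untreated is the 1 point called, at -0.19.

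NDUFA4 and NDUFA4L2 carry complex I names, but RefSeq now names them COXFA4 and COXFA4L2, for complex IV, the cytochrome c oxidase. NDUFA4 had 94.6, 97.8 and 93.0 CPM in SM, 103.9, 96.3 and 94.7 CPM in DSM and 102.6, 102.3 and 100.9 CPM in untreated libraries. All SM libraries lay below all untreated ones, whereas DSM overlapped both. The log2 difference of SM from untreated was -0.099 (SE 0.047, adjusted p = 1; with the block SE 0.036, adjusted p = 0.157). That of DSM was -0.052 (SE 0.047, adjusted p = 1; with the block SE 0.035, adjusted p = 0.999). SM differed from DSM by -0.047 (95% interval -0.15 to 0.06).

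NDUFA4L2, a relative known as a target of hypoxia-inducible factor, was the exception in spread, with an SD of log2 CPM of 1.35 over the 9 libraries and an 11.5-fold range. It had 0.282, 1.47 and 3.23 CPM in SM, 0.306, 1.97 and 2.29 CPM in DSM and 0.404, 1.95 and 2.73 CPM in untreated libraries, from 15 to 178 reads. In all 3 groups the library numbered 1 was lowest, so the groups overlap fully. Without the block, SM against untreated had a 95% interval from -2.16 to 2.13 on the log2 scale, DSM against untreated from -2.30 to 1.99 and SM against DSM from -2.03 to 2.31. With the block these intervals were -0.45 to 0.32, -0.54 to 0.22 and -0.29 to 0.49, and no adjusted p was below 0.857.

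Differences between replicate numbers were more frequent than differences between treatments. In a fit with group and replicate number, 14 of 47 genes differed between the numbers, against 40.7% of all tested genes. In replicate 1 against the mean of replicates 2 and 3, 7 of them were higher and 7 lower, against 21.2% and 19.5% of all tested genes. When libraries were scaled by their totals in place of TMM, 3 were higher and 10 lower of 13. Over all tested genes that scaling also moved the calls, from 3310 higher and 3050 lower to 2747 higher and 3679 lower. With TMM, the core subunits NDUFV1, NDUFS7 and NDUFS8 were among the lower ones, with NDUFA13, NDUFAF4, NDUFAF6 and NDUFA4L2. The higher ones were NDUFA3, NDUFA8, NDUFA9, NDUFAF3, NDUFB1, NDUFB8 and NDUFS4. The count among the 47 was 5 without untreated replicate 1, 7 without untreated replicate 3 and 9 without DSM replicate 1. Over all tested genes it was 6360 of 15619 with all libraries. In the same 3 fits it was 4546 of 15825, 5155 of 15839 and 5329 of 15811, so calls also fell over all genes.

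NDUFA4L2 averaged 0.331 CPM over the 3 libraries numbered 1, 1.80 CPM over those numbered 2 and 2.75 CPM over those numbered 3. Replicate 1 differed from the mean of the others by -2.74 on the log2 scale (adjusted p = 3.05e-10, edgeR), with -2.80 in SM, -2.66 in DSM and -2.41 in untreated cells. NDUFA8, a cysteine-rich subunit of the intermembrane space side, averaged 61.0, 53.0 and 52.8 CPM over libraries numbered 1, 2 and 3. It had 59.3, 52.4 and 51.7 CPM in SM, 63.2, 54.4 and 55.5 CPM in DSM and 60.6, 52.2 and 51.3 CPM in untreated libraries, and replicate 1 was highest in each group, by 0.21 (adjusted p = 6.14e-05).

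NDUFV1 averaged 126.9, 138.8 and 146.7 CPM over libraries numbered 1, 2 and 3, a difference of -0.17 for replicate 1 (adjusted p = 4.82e-04, edgeR), with the same sign in 3 of 3 groups. NDUFAF4 averaged 22.4, 26.5 and 24.0 CPM, a difference of -0.17 (adjusted p = 0.00112), also with 1 sign in the 3 groups. NDUFA3 averaged 25.5, 22.3 and 24.8 CPM, where replicate 2 rather than replicate 1 stood apart, and had an adjusted p of 0.00918, which was 0.0522 without untreated replicate 1 and 0.188 without untreated replicate 2. The labels do not say what the replicate numbers share, and TMM factors were lowest in the libraries numbered 1 within each group.

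**Figure D5:**
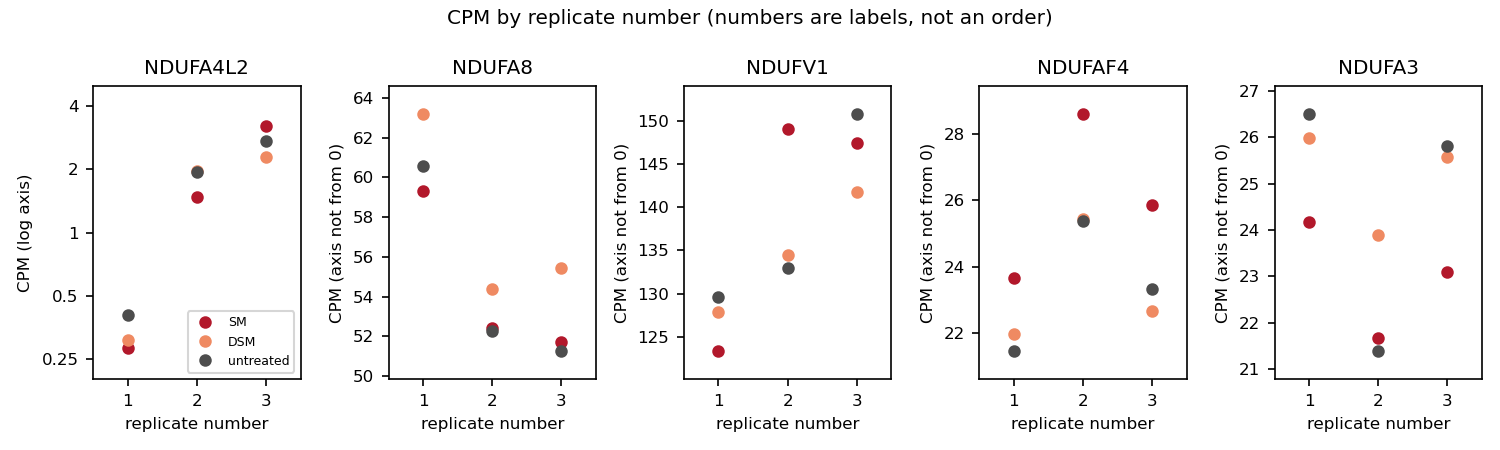
CPM by replicate number for the 5 genes with the largest differences between numbers among the 14 that passed the test, coloured by group (SM, DSM, untreated); NDUFA4L2 is on a log axis and the other axes do not start at 0. NDUFA4L2 averages 0.331 CPM in libraries numbered 1, against 1.80 and 2.75 CPM in those numbered 2 and 3.

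Genes around complex I were examined in 3 further lists. Of 11 other assembly factors (ACAD9, ECSIT, TMEM126B, TIMMDC1, COA1, TMEM186, TMEM70, FOXRED1, NUBPL, DMAC1 and DMAC2), 0 were called in any treatment comparison in either fit. Of 14 genes of mitochondrial iron-sulfur cluster assembly, 0 were called without the block. With it 1 was, ISCU in SM against DSM, where 3.88% of all tested genes were called. ISCU, the scaffold on which clusters are built, had 51.1, 56.8 and 61.8 CPM in SM, 49.0, 51.8 and 50.1 CPM in DSM and 51.3, 54.6 and 53.3 CPM in untreated libraries. It was higher with SM than with DSM by 0.17 with the block (SE 0.044, adjusted p = 0.0323, edgeR), and this adjusted p was 0.292 without SM replicate 3, 0.26 without DSM replicate 3 and 0.1 without DSM replicate 2. It also rose above 0.05 without any 1 of the untreated libraries, to between 0.053 and 0.0644.

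Of 10 regulators of respiratory chain genes, 0 were called without the block. With it 1 was, PPARGC1B, in SM against untreated and in SM against DSM, where 2.74% and 3.88% of all tested genes were called. PPARGC1B is a coactivator that raises transcription of respiratory chain genes through NRF1 and estrogen-related receptors. It had 15.4, 19.8 and 18.4 CPM in SM, 12.4, 15.7 and 15.7 CPM in DSM and 11.4, 15.6 and 16.5 CPM in untreated libraries. SM was above untreated and above DSM in 3 of 3 pairs, while the ranges overlap. With the block, the log2 difference was 0.30 from untreated (SE 0.062, adjusted p = 0.0054) and 0.29 from DSM (SE 0.063, adjusted p = 0.00621), against 0.0098 between DSM and untreated (adjusted p = 0.999). Without the block the first of these was 0.30 with an SE of 0.154 and an adjusted p of 1. The blocked adjusted p against untreated was 0.121 without untreated replicate 1 and 0.0615 without untreated replicate 2, and against DSM it was 0.0538 without DSM replicate 2 and 0.0614 without DSM replicate 3.

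Counting limits touch some of these values. In RefSeq, 20 of the 47 genes are overlapped by another gene and 21 have named pseudogenes, 69 in all, and neither the strand setting nor the handling of reads with several matches is known from the sources used. NDUFC2, which lies under the readthrough gene NDUFC2-KCTD14, had a mean of 7.22 CPM, while the readthrough gene had 0 counts in all 9 libraries. NDUFB3, with 5 named pseudogenes, and NDUFAF4, with 4, are likewise uncertain, whereas NDUFAF8 has none. In bulk RNA, fewer cells and less RNA per cell cannot be told apart.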

How the data were processed

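SW620 cells were grown in suspension and sequenced as poly(A) RNA, 9 libraries in 3 groups of 3. Per the labels' protocols, TRIzol served for RNA extraction and a NuGEN Universal Plus mRNA-seq kit for libraries. The build hg38, the aligner TopHat2 2.1.1, the counter featureCounts 2.0.0 and the trimmer cutadapt 3.4 are named in the submitters' processing notes. The gene annotation used is not given in the sources used here. The authors deposited raw counts, whole-number reads per gene without normalization, and these were tested. Their normalized table was not used. The values of 1 member are not reported here, though it is counted in the totals.

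Genes were filtered with filterByExpr (minimum count 10, minimum total 15), leaving 15619, and libraries were scaled by TMM (factors 0.981 to 1.02). All 9 libraries entered 1 quasi-likelihood fit of edgeR 4.0.16 in R 4.3.3 with group as its term, with two-sided tests adjusted by Benjamini-Hochberg over all tested genes at 0.05. Spreads were taken on log2 CPM with a prior count of 2. SM and DSM share the untreated libraries. The test was tried on simulated counts with known changes, all larger than the treatment differences of most members. The outcome is not given here, and the trial says nothing about power at the sizes seen. Within groups, chi-square per degree of freedom between replicates was 6.80 to 35.7, above sampling noise.

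The replicate numbers pair the libraries: deviations from the group means correlated at 0.227 to 0.582 for the 9 pairs of the same number, and at -0.404 to 0.161 for the 18 others. A fit with the number as a block was therefore also made for each treatment comparison. Its values are not printed for every gene. The members and gene lists were chosen with earlier results of these data known. Values in every library are given for members called in either fit or, where none was, for the 3 of smallest p, for NDUFA4 and NDUFA4L2, for the 5 of largest differences between numbers among those that passed, and levels for the 3 highest and 3 lowest. Of other lists, up to 3 called genes are named. NDUFA6, NDUFAF7 and other genes singled out by spread or overlap were named after their values were seen.

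Alternatives were other scalings and filters, DESeq2 1.42.0, limma 3.58.1 voom, fits of only 2 groups, and leaving out single libraries. With the block, DESeq2, voom, the scalings, the fit of only 2 groups and leaving out all libraries of 1 number were chosen after seeing the data. Promoter windows and coordinates are from RefSeq, GRCh38.p14. Exon and transcript lengths are from GENCODE 29.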

Additional observations from a re-analysis of the deposited data

How the results depend on the processing

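Without the replicate block, 0 of 47 genes were called in each treatment comparison under every alternative run: DESeq2 size factors, library totals, no filter, at least 1 CPM in every library (46 of the 47 tested), the DESeq2 Wald test, limma voom, only the 2 groups compared, and leaving out each library. With the replicate block, DSM against untreated and SM against DSM also kept 0. SM against untreated moved from 0 to 1, NDUFAF8, in the blocked edgeR fit and its forms with DESeq2, voom, DESeq2 size factors, library totals or only the 2 groups (adjusted p 0.00712 to 0.0247), and without the libraries numbered 2. Leaving out 1 library with the block gave 0 to 2, and without it 0. With all 9 libraries the block changed no other call among the 47. Without SM replicate 2 it also brought in NDUFB3 (adjusted p = 0.0361). Over all genes the block moved the calls from 3 to 428 in SM against untreated, from 0 to 606 in SM against DSM, and from 0 to 0 in DSM against untreated. The 14 calls between replicate numbers were 13 to 15 under other scalings and filters and 5 to 19 without 1 library. Over all tested genes, the 6360 calls were 4546 to 6736 without 1 library.

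NDUFA4L2 had no stable sign in the treatment comparisons. SM against untreated, -0.016, was 0.0053 without the libraries numbered 1 and 0.11 without those numbered 2, both with the block. Without 1 library it ranged from -1.01 to 0.52, and with the block from -0.47 to 0.17. SM against DSM, 0.14, was -0.011 by limma voom, -0.14 without DSM replicate 3 with the block and -0.34 without the libraries numbered 3. Without 1 library it ranged from -0.85 to 0.65, and with the block from -0.31 to 0.33. DSM against untreated, -0.15, ranged from -0.63 to 0.38, and with the block from -0.38 to 0.061. The cause was not tested. Of the other log2 differences recomputed, none changed sign. Depth and spread limit precision: the median half-width of the members' 95% intervals in SM against untreated was 0.13 (0.089 with the block).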

Other observations

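The 5 rows left out by the choice of symbols were low in every library. NDUFB2-AS1, annotated antisense to NDUFB2, averaged 1.82 CPM in SM, 1.69 CPM in DSM and 1.60 CPM in untreated libraries, and NDUFA6-DT averaged 0.767, 0.601 and 0.721 CPM. NDUFV2-AS1 had at most 0.432 CPM and the pseudogene NDUFAF4P1 had at most 9 reads in any library.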
